A study of Mus musculus with 12 samples.

Results

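The genes described here encode 9 molecules that let white blood cells stick to and leave small vessels: the selectins Selp and Sele, the selectin ligand Selplg, the immunoglobulin family counter-receptors Icam1, Icam2 and Vcam1, and the integrin subunits Itgam, Itgal and Itgb2. They were found in a table of 45101 probe sets as the 14 probe sets annotated to exactly 1 of these symbols, and each gene is given by the probe set with the highest mean over all 12 arrays. Of these genes 8 were among the 12921 tested. Sele lay below the filter on mean level, a log2 level of 6.42, and its values are given from a fit without that filter.

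Total RNA from mouse lung was measured on 12 Affymetrix arrays, 3 in each of 4 groups, from mice aged 8 to 12 weeks. In the first group the mice received both recombinant human PBEF (rhPBEF) and ventilation, in the second rhPBEF alone, and in the third, labelled VALI, ventilation alone. Control mice received PBS. The groups follow the titles and treatments, since 1 description, that of a control animal, is attached to every sample. PBEF is another name of the enzyme that the mouse gene Nampt encodes. A dose of 20 µg of rhPBEF was injected into the trachea of each treated mouse, in 1.5 µl of water for every gram it weighed. Ventilation lasted 4 hours with a tidal volume of 30 ml per kg. The labels name no strain, do not say whether ventilated or control mice had a tracheal injection, and include no group ventilated with smaller breaths. Nothing in them states that the replicates came from separate animals, and the p-values then reflect only how these arrays scatter, which may be technical.

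Leukocytes leave the blood in steps. Selectins on activated endothelium, and on platelets in the case of P-selectin, catch passing cells by binding glycosylated ligands such as PSGL-1, the product of Selplg. Chemokines then switch on the leukocyte's integrins, which hold the cell to members of the ICAM family and to VCAM-1 before it crosses the wall. P-selectin is kept in granules ready for release and its gene can also be induced in mice, E-selectin is made anew after a stimulus, and ICAM-2 is present on resting endothelium. In the lung ICAM-1 is also made by alveolar type I epithelium, and neutrophils can lodge in the narrow capillaries without selectins.

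Promoter sequence was at hand for 4 of the 9 genes, and 3 are shown because they belong to inducible molecules whose levels are described next. Each run is the 250 bases before a RefSeq transcript start on GRCm38.p6, plus strand, 5′ to 3′, at chr1:164047984-164048233 for Sele, chr1:164115014-164115263 for Selp and chr9:21015690-21015939 for Icam1. For Selp and Icam1 this is the first base of the annotated gene, while the start used for Sele lies inside the span annotated to the gene. Capitals mark matches on either strand to GGANATTCC, a form of the site bound by NF-kB, to TGANTCA, a form of the AP-1 site, and to TATAAA, the TATA box. GGANATTCC was chosen after these promoters had been read.
Sele: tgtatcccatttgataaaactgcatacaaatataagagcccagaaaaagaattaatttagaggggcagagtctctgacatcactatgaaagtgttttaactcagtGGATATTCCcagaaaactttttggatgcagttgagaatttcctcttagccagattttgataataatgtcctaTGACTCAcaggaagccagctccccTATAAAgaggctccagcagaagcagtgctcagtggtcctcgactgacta
Selp: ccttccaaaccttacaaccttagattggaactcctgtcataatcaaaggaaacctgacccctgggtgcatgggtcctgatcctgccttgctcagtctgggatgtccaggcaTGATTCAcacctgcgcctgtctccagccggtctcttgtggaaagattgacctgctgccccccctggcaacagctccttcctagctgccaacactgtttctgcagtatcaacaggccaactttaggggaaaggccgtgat
Icam1: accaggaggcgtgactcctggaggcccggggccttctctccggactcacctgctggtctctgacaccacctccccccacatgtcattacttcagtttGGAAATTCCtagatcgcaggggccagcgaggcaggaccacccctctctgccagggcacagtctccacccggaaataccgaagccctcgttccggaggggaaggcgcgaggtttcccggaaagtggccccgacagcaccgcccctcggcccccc

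Among 32851 promoters of the same length GGANATTCC was found in 0.819%, TGANTCA in 6.75% and TATAAA in 12.4%. Sele held all 3 motifs, with GGATATTCC from base 145 to base 137 before the start, TGACTCA from 73 to 67 and TATAAA from 49 to 44. Icam1 held GGAAATTCC from base 153 to base 145, and Selp held TGATTCA from 139 to 133. The promoter of Itgam, which is not shown, held none of the 3 motifs. The NF-kB decamer consensus, with 7.25% of promoters matching, was not found in these letters of any of the 4 promoters. These matches describe the letters only.

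Selp, which encodes P-selectin, had the largest differences from control among the 9 genes in all 3 treated groups, together with a wide spread between arrays. On the log2 scale its level was 11.48, 10.75 and 8.50 in lungs given rhPBEF plus ventilation, 9.67, 10.73 and 7.97 in rhPBEF lungs, 8.41, 10.31 and 8.15 in ventilated lungs, and 7.65, 6.89 and 7.54 in control lungs. Every treated array was above every control array, and the lowest array of each treated group was its replicate 3. The group means on the log2 scale were 10.24 ± 1.56, 9.46 ± 1.39, 8.96 ± 1.18 and 7.36 ± 0.41 in that order (SD, n = 3 each). Against control, the combined treatment stood 2.88 ± 0.85 (SE) higher on the log2 scale, a ratio of 7.38 (limma adjusted p = 0.0578), rhPBEF 2.10 ± 0.85 higher (limma adjusted p = 0.227) and ventilation 1.60 ± 0.85 higher (limma adjusted p = 0.384). None of these passed 0.05 in the fit of all 12 arrays. With 1 array left out at a time, the difference for the combined treatment ran from 2.26 to 3.76, with limma adjusted p-values of 0.231 and 0.0101 at these ends, where replicate 1 and replicate 3 of the combined group were absent. Without ventilation replicate 2 the ventilation difference was 0.92. The other probe sets of Selp read 3.49 to 3.59 and 5.27 to 5.35 in control, levels that could not be told from background. On them the combined treatment stood 1.89 and 1.81 higher on the log2 scale (limma adjusted p = 0.164 and 0.137, over 34945 probe sets). On the second of them rhPBEF replicate 3, at 5.20, lay below the control range.

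Sele, which encodes E-selectin, was low in all 3 control arrays and varied widely within each treated group, with some arrays high and others near control. The log2 level of Sele was 7.74, 6.85 and 5.63 in lungs given rhPBEF plus ventilation, 6.61, 7.0 and 5.47 in rhPBEF lungs, 5.26, 8.92 and 5.29 in ventilated lungs, and 5.49, 5.32 and 4.97 in control lungs. Ventilation replicate 2 had the highest level of all 12 arrays, while the other ventilated arrays lay within the control range. The combined group lay above control in every array, and both the rhPBEF and the ventilated group overlapped with control. In the fit without a filter Sele stood 1.48 ± 0.87 (SE) higher with the combined treatment, 1.10 ± 0.87 higher with rhPBEF and 1.23 ± 0.87 higher with ventilation on the log2 scale, with limma adjusted p-values of 0.348, 0.578 and 0.545. Without ventilation replicate 2 the ventilation difference was 0.01. The table has no detection calls, so a level of about 5 could not be told from background.

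Over the whole table ventilation replicate 2 correlated at 0.978 to 0.986 with the other arrays over all non-control probe sets, where the lowest correlation among the remaining arrays was 0.981. Ventilation replicate 3 and rhPBEF replicate 2 were high in skeletal muscle genes: the mean of 6 such genes was 2.59 and 3.65 log2 units above control there, against -0.34 to 0.18 in every other array. All 10 lung epithelial markers passed the filter, and their mean differed from control by -0.24 to 0.02 on the log2 scale in the 12 arrays. Since these are whole-lung samples, fewer cells of a type and less RNA per cell cannot be told apart.

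**Figure D1:**
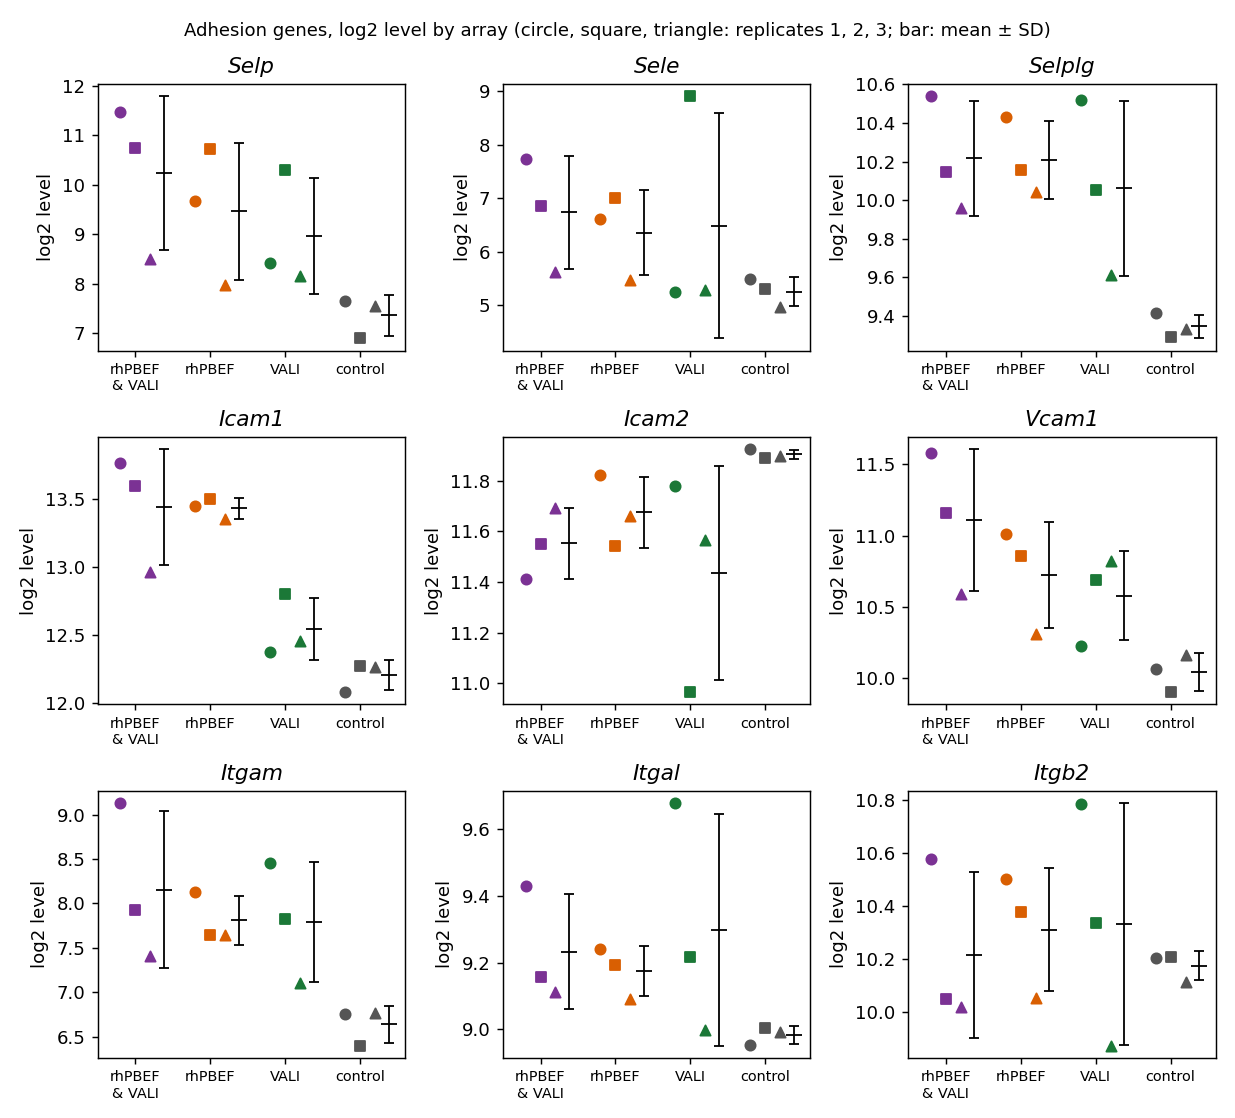
Log2 level of the 9 adhesion genes in each array, with lungs given rhPBEF plus ventilation, rhPBEF, ventilation (VALI) and control from left to right, replicates 1 to 3 as circle, square and triangle, and the mean with SD as a bar. Icam1 is near 13.4 in all 3 rhPBEF arrays and at most 12.27 in control, while Selp and Sele spread over more than 1 log2 unit within each treated group.

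Icam1, the ligand of the integrins LFA-1 and Mac-1, passed the test in both groups given rhPBEF. Its log2 level was 13.77, 13.60 and 12.96 in lungs given rhPBEF plus ventilation, 13.45, 13.51 and 13.35 in rhPBEF lungs, 12.37, 12.80 and 12.45 in ventilated lungs, and 12.08, 12.27 and 12.27 in control lungs. All 6 arrays with rhPBEF were above all 6 arrays without it, and each ventilated array was above each control array. Icam1 rose 2.36-fold with the combined treatment, by 1.24 ± 0.18 (SE) on the log2 scale (limma adjusted p = 0.00594), and 2.34-fold with rhPBEF alone, by 1.23 ± 0.18 (limma adjusted p = 0.00962). With ventilation alone it stood 0.34 ± 0.18 higher on the log2 scale (limma adjusted p = 0.391). The call for the combined treatment held without any 1 of the 12 arrays, with limma adjusted p-values up to 0.0355. That for rhPBEF alone was lost without control replicate 1 (limma adjusted p = 0.0538) or rhPBEF replicate 2 (limma adjusted p = 0.0559), where the differences were 1.17 and 1.19.

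Vcam1, which encodes the counter-receptor of the integrin VLA-4, rose with the combined treatment. The arrays read a log2 level of 11.58, 11.16 and 10.59 there, 11.01, 10.86 and 10.31 in rhPBEF lungs, 10.22, 10.69 and 10.82 in ventilated lungs, and 10.07, 9.90 and 10.16 in control lungs. All 3 treated groups lay above control without overlap, and the groups overlapped with each other. The rise was 2.09-fold with the combined treatment, 1.07 ± 0.25 (SE) on the log2 scale (limma adjusted p = 0.0314), while rhPBEF stood at 0.68 ± 0.25 (limma adjusted p = 0.194) and ventilation at 0.53 ± 0.25 (limma adjusted p = 0.339). The other probe sets of Vcam1 had smaller differences of 0.80 and 0.59 for the combined treatment that did not pass (limma adjusted p = 0.0778 and 0.105). These come from a fit of 34945 probe sets, in which the main probe set had a limma adjusted p of 0.0424. On one of the other probe sets rhPBEF replicate 3, at 9.02, lay below the control range of 9.07 to 9.15.

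Icam2, the ICAM of resting endothelium, was the member that lay below control. The log2 level of Icam2 was 11.41, 11.55 and 11.69 in lungs given rhPBEF plus ventilation, 11.82, 11.54 and 11.66 in rhPBEF lungs, 11.78, 10.97 and 11.57 in ventilated lungs, and 11.92, 11.89 and 11.90 in control lungs. Every treated array was below every control array, with ventilation replicate 2 the lowest. The differences did not pass, at -0.35 ± 0.17 for the combined treatment, -0.23 ± 0.17 for rhPBEF and -0.47 ± 0.17 for ventilation on the log2 scale (SE, limma adjusted p = 0.212, 0.512 and 0.256). Without ventilation replicate 2 the ventilation difference was -0.23, and that of the combined treatment passed at -0.35 (limma adjusted p = 0.0423). The mean of 14 endothelial markers was also below control in each treated array, at -0.46 to -0.23 log2 units with the combined treatment, -0.28 to -0.12 with rhPBEF and -0.39 to -0.29 with ventilation, against -0.06 to 0.06 in control. Of these markers 4 fell with the combined treatment, 0 rose, and 10 did not pass, where 4.86% of all genes were called lower and 3.93% higher. The part of these markers in the Icam2 values was not tested.

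**Figure D2:**
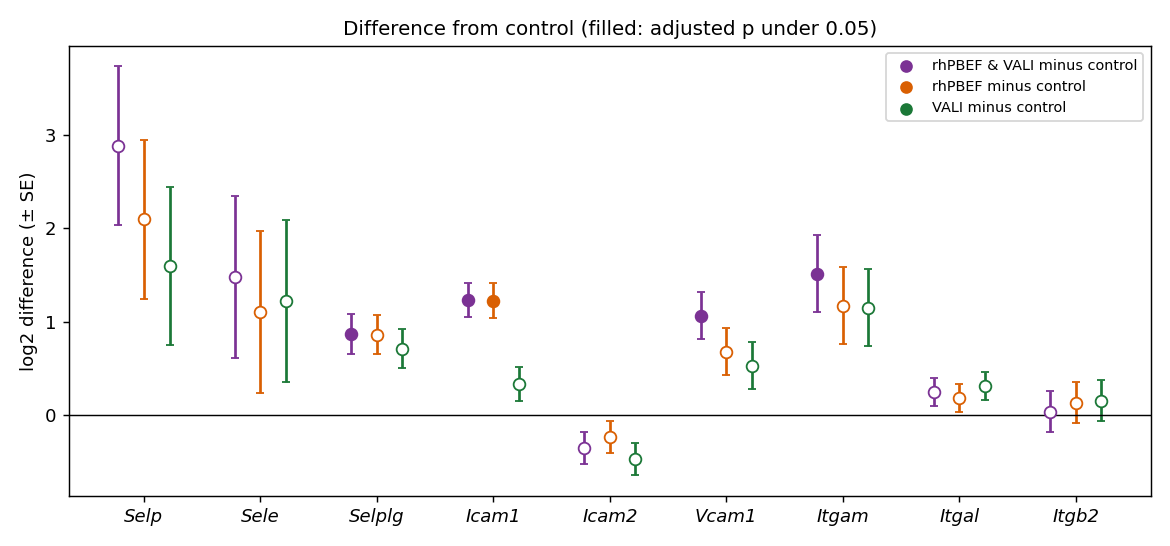
Log2 difference from control with its standard error for each gene, for rhPBEF plus ventilation, rhPBEF and ventilation from left to right, with filled points past a limma adjusted p of 0.05. Icam1 is filled for both rhPBEF groups, Selplg, Vcam1 and Itgam for the combined treatment, and Selp has the largest differences and among the widest errors.

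On the leukocyte side, Selplg, which encodes the selectin ligand PSGL-1, rose with the combined treatment. Its log2 level was 10.54, 10.15 and 9.96 there, 10.43, 10.15 and 10.04 in rhPBEF lungs, 10.52, 10.05 and 9.61 in ventilated lungs, and 9.41, 9.29 and 9.33 in control lungs. All 9 treated arrays lay above all 3 control arrays, and the treated groups overlapped with each other. The rise was 1.83-fold, 0.87 ± 0.21 (SE) on the log2 scale (limma adjusted p = 0.0326), against differences of 0.86 ± 0.21 with rhPBEF (limma adjusted p = 0.0798) and 0.72 ± 0.21 with ventilation (limma adjusted p = 0.188). The difference with rhPBEF passed without ventilation replicate 1 (limma adjusted p = 0.0398) or 3 (limma adjusted p = 0.0373), and over all single left-out arrays its limma adjusted p reached 0.238. It also passed with the replicate number as a block (limma adjusted p = 0.0154), with only the groups compared (limma adjusted p = 0.00616) and with array weights (limma adjusted p = 0.00948).

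Itgam, which encodes the alpha subunit of Mac-1 on neutrophils and macrophages, rose with the combined treatment as well. The log2 level of Itgam was 9.13, 7.92 and 7.40 in lungs given rhPBEF plus ventilation, 8.13, 7.65 and 7.65 in rhPBEF lungs, 8.45, 7.82 and 7.10 in ventilated lungs, and 6.75, 6.40 and 6.76 in control lungs. Again no treated array overlapped with control. Itgam rose 2.86-fold with the combined treatment, by 1.52 ± 0.41 (SE) on the log2 scale (limma adjusted p = 0.0455), and stood at 1.17 ± 0.41 with rhPBEF and 1.15 ± 0.41 with ventilation (limma adjusted p = 0.181 and 0.243). Its difference with rhPBEF passed with only the groups compared (limma adjusted p = 0.00861) and with array weights (limma adjusted p = 0.0302).

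The calls of Vcam1, Selplg and Itgam for the combined treatment depended on single arrays of the groups compared. Without control replicate 1, 2 or 3, or without replicate 1 or 2 of the combined group, all 3 missed 0.05, with limma adjusted p-values of up to 0.135 for Vcam1, 0.144 for Selplg and 0.162 for Itgam. Vcam1 and Selplg kept the call without any 1 ventilated or rhPBEF array. Itgam missed 0.05 without any 1 rhPBEF array (limma adjusted p = 0.0581 to 0.0595) and with no filter on low values (limma adjusted p = 0.0547). The differences of these genes stayed positive in each of these fits.

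The other integrin subunits did not pass the test in any comparison with control, except Itgal for ventilation when arrays were weighted. Itgal, the alpha subunit of LFA-1, had log2 levels of 9.43, 9.16 and 9.11 with the combined treatment, 9.24, 9.19 and 9.09 with rhPBEF, 9.68, 9.22 and 9.0 with ventilation, and 8.95, 9.0 and 8.99 in control. Both rhPBEF groups lay above control by small margins, and ventilation replicate 3 lay within the control range. The differences were 0.25, 0.19 and 0.32, each ± 0.15 (SE), with limma adjusted p-values of 0.306, 0.527 and 0.338. On the other probe set of Itgal all 3 treated groups overlapped with control, and the differences were 0.01, 0.03 and 0.16 in the same order. Itgb2, the beta subunit shared by LFA-1 and Mac-1, had levels of 10.58, 10.05 and 10.02 with the combined treatment, 10.50, 10.38 and 10.05 with rhPBEF, 10.79, 10.34 and 9.87 with ventilation, and 10.20, 10.21 and 10.11 in control. Each treated group overlapped with control. Its differences were 0.04, 0.14 and 0.16, each ± 0.22 (SE), with 95% intervals of -0.44 to 0.52, -0.34 to 0.62 and -0.32 to 0.64 on the log2 scale.

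Neutrophil markers were high in the same treated arrays. The mean of 12 such markers lay 3.34, 2.21 and 1.72 log2 units above control in replicates 1 to 3 of the combined group, 2.35, 2.07 and 2.01 in rhPBEF lungs, and 2.71, 2.60 and 0.68 in ventilated lungs, against -0.15 to 0.11 in control. S100a9, a calcium-binding protein abundant in neutrophils, rose by 3.38 ± 0.61 (SE) with the combined treatment (limma adjusted p = 0.0137). Of the 12 markers 8 rose with the combined treatment, 4 with rhPBEF and 0 with ventilation. Over all genes 3.93%, 0.936% and 0% were called higher in the same order. The array with the highest neutrophil mean in each treated group was also the highest for Itgam, Selplg, Itgal and Itgb2. In the combined group that array was the highest for Selp, Sele, Icam1 and Vcam1 as well. It was also the highest for Vcam1 and Icam2 in rhPBEF lungs and for Icam2 in ventilated lungs. The share of all genes highest in these arrays was not counted. Macrophage and monocyte markers had a mean of -0.08 to 0.38 with the combined treatment, 0.04 to 0.18 with rhPBEF, and -0.18 to 0.37 with ventilation, against -0.05 to 0.06 in control. Among these Marco, a scavenger receptor of alveolar macrophages, rose by 1.65 with the combined treatment (limma adjusted p = 0.0147), and Siglecf, a lectin of alveolar macrophages, fell by 1.03 (limma adjusted p = 0.029). The other 8 of these 10 markers did not pass, where 8.79% of all genes were called, and the list median was -0.01. Platelet markers, of interest because platelets carry P-selectin, overlapped between all groups, with means of -0.05 to 0.28 with the combined treatment, 0.02 to 0.38 with rhPBEF and -0.18 to 0.17 with ventilation, against -0.21 to 0.34 in control. The part of any of these cells in the adhesion genes was not tested.

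**Figure D3:**
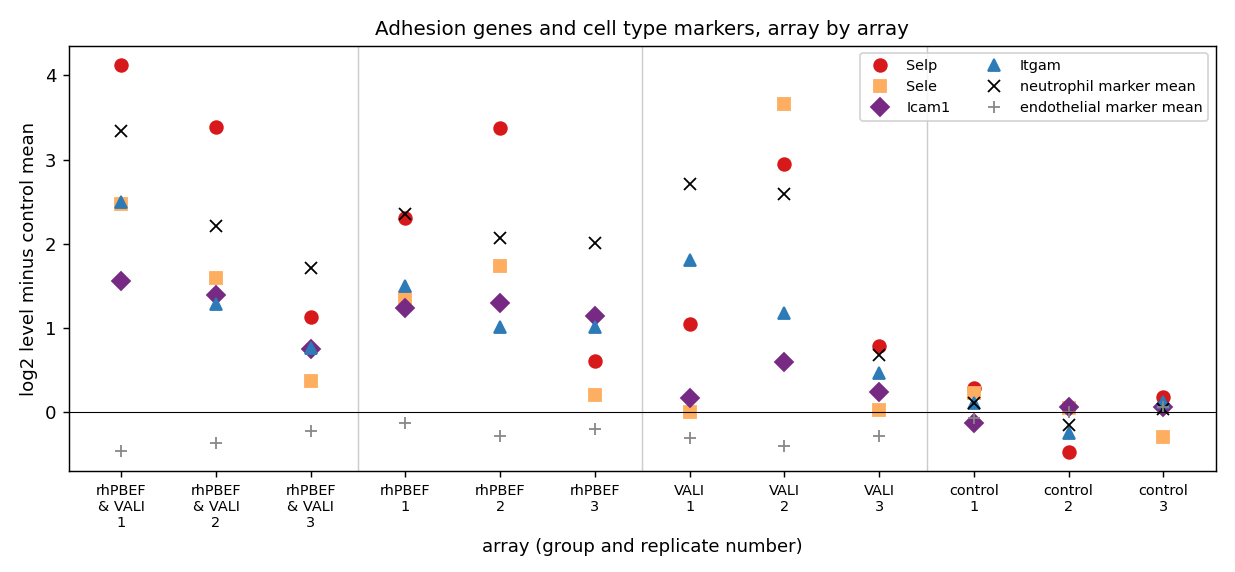
Log2 level minus the control mean in each of the 12 arrays for Selp, Sele, Icam1 and Itgam, and for the mean of 12 neutrophil and 14 endothelial markers, with groups in the order rhPBEF plus ventilation, rhPBEF, ventilation and control. Sele reaches its highest point in ventilation replicate 2, the neutrophil mean is at least 0.68 in all treated arrays, and the endothelial mean is below 0 in all of them.

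Read over the 8 tested members, the combined treatment against control called 4 higher and 0 lower, where 8.79% of all genes were called, 3.93% higher and 4.86% lower. An unadjusted p under 0.05 was found for 5 members and 27.5% of all genes. Without overlap between the groups 6 members were higher and 1 lower, where 12.5% of all genes were higher and 24.4% lower in that way. The median difference of the members was 0.97 on the log2 scale, against -0.06 over all genes. For rhPBEF against control 1 member was called higher, where 1.22% of all genes were called, 0.936% higher and 0.286% lower. An unadjusted p under 0.05 was found for 5 members and 18.3% of all genes. Here 6 members were higher and 1 lower without overlap, against 9.24% and 24% of all genes, and the medians were 0.77 for the members and -0.07 for all genes. For ventilation against control 0 members passed in limma, and 3 had an unadjusted p under 0.05. Over all genes 0.00774% were called and 15.5% had such an unadjusted p. In that comparison 5 members were higher and 1 lower without overlap, against 9.1% and 15.5% of all genes, and the medians were 0.44 and -0.04. These 3 comparisons share their control arrays.

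Setting the treatments against each other asked what one added to the other. For rhPBEF added to ventilation Icam1 stood 0.90 ± 0.18 (SE) higher in the combined group than in ventilated lungs on the log2 scale, and the 3 combined arrays were above the 3 ventilated ones (limma adjusted p = 0.0814). With 1 array left out at a time it ran from 0.74 to 1.14, and its limma adjusted p from 0.00161 to 0.392. It passed in 1 of these 12 fits, the one without replicate 3 of the combined group. None of the 8 tested members passed in this comparison with limma, where 0.325% of all genes were called, 0.31% higher and 0.0155% lower. Icam1 alone had an unadjusted p under 0.05, as 9.98% of all genes did, and it alone did not overlap between the groups, where 4.05% of all genes were higher and 6.31% lower in that way. Selp stood at 1.29 ± 0.85 and Vcam1 at 0.53 ± 0.25 (limma adjusted p = 0.663 and 0.523). For ventilation added to rhPBEF Icam1 stood at 0.01 ± 0.18, with a 95% interval of -0.40 to 0.41 on the log2 scale. Vcam1 stood at 0.38 ± 0.25 and Selp at 0.78 ± 0.85, and 0 of 8 members passed in limma or had an unadjusted p under 0.05, where 0.00774% of all genes were called and 3.77% had such an unadjusted p. None was without overlap in this comparison, where 5.12% of all genes were higher and 4.28% lower in that way.

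Averaged over both ventilation states, 6 arrays with rhPBEF against 6 without, Icam1 rose 2.09-fold, by 1.06 ± 0.13 (SE) on the log2 scale (limma adjusted p = 0.00153). It was the member called out of 8, where 4.67% of all genes were called, 2.62% higher and 2.06% lower. An unadjusted p under 0.05 was found for 5 members and 23.7% of all genes. Vcam1 stood at 0.61 ± 0.18 (limma adjusted p = 0.0773), Selplg at 0.51 ± 0.15 (limma adjusted p = 0.0757), Selp at 1.69 ± 0.60 (limma adjusted p = 0.123) and Itgam at 0.77 ± 0.29 (limma adjusted p = 0.141). With 1 array left out at a time their limma adjusted p-values ran from 0.0149 to 0.175 for Vcam1, from 0.0331 to 0.172 for Selplg, from 0.0277 to 0.264 for Selp and from 0.0452 to 0.257 for Itgam. All 4 passed without replicate 3 of the combined group, Vcam1 also without rhPBEF replicate 3 and Selplg also without ventilation replicate 1.

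For ventilation averaged over both rhPBEF states 0 of 8 members passed in limma, where 0.549% of all genes were called, and 4 had an unadjusted p under 0.05, as 16.6% of all genes did. Those 4 were Itgam at 0.75 ± 0.29, Vcam1 at 0.46 ± 0.18, Selplg at 0.36 ± 0.15 and Icam2 at -0.29 ± 0.12 (SE, log2 scale), with limma adjusted p-values from 0.242 to 0.262. Icam1 stood at 0.17 ± 0.13, with a 95% interval of -0.11 to 0.46.

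**Figure D4:**
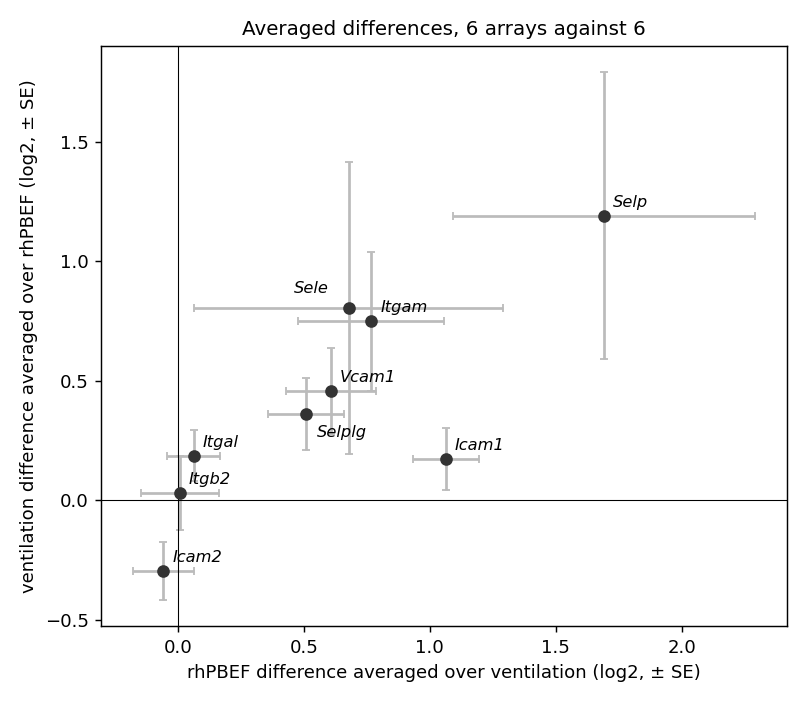
Log2 difference for rhPBEF averaged over ventilation (horizontal) and for ventilation averaged over rhPBEF (vertical) with standard errors, 6 arrays against 6 in each direction. Icam1 lies far to the right at 1.06 and near 0.17 in height, Selp is highest in both directions, and Icam2 is the member below 0 in both.

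The interaction tested whether the rhPBEF difference changed with ventilation. It was called for 0 of 8 members and 0% of all genes in limma, with an unadjusted p under 0.05 for 1 member and 2.23% of all genes. That member was Selplg at -0.71 ± 0.30 (SE) on the log2 scale, with a 95% interval of -1.36 to -0.05 (limma adjusted p = 0.998). The interval for Icam1 was -0.90 to 0.24 and that for Selp -3.45 to 1.83.

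Other genes of the same adhesion steps were counted by list. Of 14 tested genes for selectins and the making of their ligands 4 rose with the combined treatment, 0 fell, and 10 did not pass, where 8.79% of all genes were called. They were Cd44, a hyaluronan receptor that also binds E-selectin, by 1.08 ± 0.16 (SE, limma adjusted p = 0.0055), the sialyltransferase gene St3gal4 by 0.81, the branching enzyme gene Gcnt1 by 0.71 and the galactosyltransferase gene B4galt1 by 0.68 on the log2 scale. Cd44 also rose by 0.90 ± 0.16 with rhPBEF alone (limma adjusted p = 0.0195). No other gene of this list passed there, where 1.22% of all genes were called. The log2 level of Cd44 was 12.87, 12.68 and 12.27 with the combined treatment, 12.61, 12.39 and 12.28 with rhPBEF, 11.98, 11.65 and 12.01 with ventilation, and 11.62, 11.51 and 11.43 in control. The list median was 0.18 with the combined treatment, against -0.06 over all genes. None of its 14 genes passed with ventilation, where 0.00774% of all genes were called.

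Of 16 genes for integrin activation and signalling in leukocytes 4 rose and 1 fell with the combined treatment, against the same 8.79% of all genes. Syk, a tyrosine kinase that acts downstream of PSGL-1 and of integrins, rose by 1.28 ± 0.19 (SE, limma adjusted p = 0.00594), and the adaptor genes Fyb and Cytip rose by 1.21 and 0.58. Rasgrp2, which encodes an exchange factor for the integrin-activating GTPase Rap1, fell by 0.69 ± 0.14. With rhPBEF alone Syk rose by 1.11 ± 0.19 (limma adjusted p = 0.0194) and no other gene of the list passed, and with ventilation 0 of 16 did. Over all genes 1.22% were called with rhPBEF and 0.00774% with ventilation. The list median was 0.19 with the combined treatment, 0.15 with rhPBEF and 0.19 with ventilation.

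None of 8 other integrin subunits of leukocytes passed in any of the 3 comparisons with control. Their medians were -0.0043 with the combined treatment, 0.014 with rhPBEF and -0.043 with ventilation. Over all genes 8.79%, 1.22% and 0.00774% were called in the same order. Of 16 other endothelial adhesion and transmigration genes 0 rose and 1 fell with the combined treatment, where 3.93% of all genes were called higher and 4.86% lower. The gene that fell was Cd99l2, a relative of the transmigration molecule CD99, by 0.48 ± 0.12 (SE, limma adjusted p = 0.0363). None of the 16 passed with rhPBEF or ventilation alone.

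The tested genes whose profile over the 12 arrays lay closest to a member, each centred on its own mean, were named. Closeness was the root mean square distance in log2 units, and uncharacterised transcripts were skipped. For Selp these were Rnd1 at 0.551, Il1rn at 0.589 and Tfpi2 at 0.594, where the median distance of the genes ranked was 1.48. Rnd1 had log2 levels of 10.76, 9.75 and 8.06 with the combined treatment, 9.18, 9.80 and 7.92 with rhPBEF, 8.06, 8.54 and 7.40 with ventilation, and 7.25, 7.47 and 7.38 in control. The closest to Sele were Hcar2 at 0.502, Nfkbid at 0.552 and Sbno2 at 0.563, with a median of 1.20 over the genes ranked. All 3 shared its peak in ventilation replicate 2, which follows in part from choosing them by closeness to Sele. Nfkbid, an I-kappa-B family gene, stood at 9.37 there against 7.49 and 7.31 in the other ventilated arrays. For Icam1 they were Slc6a14 at 0.167, Slc13a3 at 0.181 and Sdc4 at 0.185, against a median of 0.629. Vcam1 lay closest to Il1r1, the receptor gene of interleukin 1, at 0.127, to Etv6 at 0.137 and to P2ry2 at 0.163, against a median of 0.525.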

How the data were processed

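Lung RNA was measured on 12 arrays, and groups came from the sample titles. The deposited table holds log2 values that the authors had normalised. MAS5 and GCRMA are named, per the submitters' processing notes, without a version or a statement of which made the table. How background was corrected, how arrays were scaled and which genome build was used is not given in the sources used here. Array medians ran from 7.00 to 7.07, 0 columns were identical, and the number of arrays limits the precision.

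After removal of 64 control probe sets, those with a mean above the 40th percentile and 1 gene symbol were kept, and each gene was taken at its highest probe set. One mean per group was fitted in R 4.3.3 by lmFit and eBayes of limma 3.58.1, with 8 residual degrees of freedom plus 2.99 from the prior. The Benjamini-Hochberg adjustment ran over 12921 genes, or over 18193 for Sele. For the other probe sets of Selp and Vcam1 it ran over 34945 probe sets without the filter. With 3 arrays in each group, the smallest two-sided p of an exact permutation test is 0.1. The fit was tested on simulated data. The members, motifs, gene lists and comparisons were chosen with earlier results of these data known. All 9 members were named, with up to 4 called genes of largest difference per pathway list and comparison, and the 3 genes nearest in profile to each of 4 members. S100a9, Marco and Siglecf were named after their values were seen. Alternatives changed the filter, normalisation, variance model, array weights, probe set rule, replicate block and arrays used.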

Additional observations from a re-analysis of the deposited data

How the results depend on the processing

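The Icam1 rise with the combined treatment passed under all alternatives run. That with rhPBEF alone missed 0.05 without both arrays high in muscle genes, an alternative chosen after seeing the data (limma adjusted p = 0.0618). Itgam with the combined treatment also missed it when each probe set was tested (limma adjusted p = 0.0512) and with only the groups compared (limma adjusted p = 0.061), and Selp passed with the replicate block (limma adjusted p = 0.0325), with array weights (limma adjusted p = 1.2e-05), and without ventilation replicate 2 (0.0389) or rhPBEF replicate 3 (0.0475). Of 961 comparisons of a member's difference with its value in the fit of all arrays, 895 kept direction and side of the threshold, 35 passed anew, 24 no longer passed and 7 turned sign. These cover every member against control, but elsewhere only Icam1 and members with an unadjusted p under 0.05 in the fit of all arrays. Turns of other members elsewhere were therefore not counted. The turns were Itgb2 with the combined treatment under array weights, at -0.131, and over single left-out arrays, from -0.141 to 0.138. Itgb2 with ventilation ran from -0.0702 to 0.387 over single left-out arrays, and Icam1 in the combined group against rhPBEF turned with arrays centred on their medians, at -0.000789, and over single left-out arrays, from -0.154 to 0.249.

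Leaving out 1 array at a time gave 44 to 358 genes and 0 to 2 members for rhPBEF, 0 to 43 genes for ventilation, 152 to 2498 genes and 1 to 6 members for the combined treatment, 13 to 406 genes and 0 to 1 members for combined against ventilation, 0 to 3 genes for combined against rhPBEF, 0 to 4 genes for the interaction, 234 to 1584 genes and 1 to 5 members for averaged rhPBEF, and 6 to 555 genes for averaged ventilation.

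The estimation of array weights stopped before its tolerance. With these weights Selp, Selplg, Vcam1 and Itgam passed in addition for rhPBEF. Selplg, Itgam and Itgal passed for ventilation (limma adjusted p = 0.0164 for Itgal). For the combined treatment Icam2 passed lower (limma adjusted p = 0.000763) and Sele higher, the latter without a filter (limma adjusted p = 0.005). The weights called 1626 genes and 5 members for rhPBEF, 1123 and 3 for ventilation, and 7579 and 6 (5 higher, 1 lower) for the combined treatment. They called 3029 and 5 (3 higher, 2 lower) for combined against ventilation, and 670 genes for combined against rhPBEF. For averaged rhPBEF they called 4417 and 4, and for averaged ventilation 2913 and 5. In the fit of all arrays the gene counts were 158, 1, 1136, 42, 1, 604 and 71 in that order. With only the groups compared they were 636 genes and 3 members for rhPBEF, 0 for ventilation, 3 for combined against ventilation and 0 for combined against rhPBEF. Without both muscle-high arrays they were 69 genes and 0 members for rhPBEF, 34 for ventilation, 0 for combined against rhPBEF and 2 for the interaction. For ventilation an intensity trend gave 4, the mean of a gene's probe sets 4 and each probe set tested 2. The mean of probe sets gave 2 for combined against rhPBEF, and no filter gave 40 for averaged ventilation. Whether replicate numbers pair the arrays was not settled. Deviations from the group means correlated at -0.21 to 0.53 over 18 same-numbered pairs, with a median of 0.065, and 7 were above 0.1. Over 36 pairs of unlike number they ran from -0.53 to 0.33, with a median of -0.062, and 11 were above 0.1. With the replicate block 186 genes and 2 members passed for rhPBEF, 1263 and 5 for the combined treatment, and 658 and 2 for averaged rhPBEF. In that fit 0 genes passed for ventilation and for combined against rhPBEF.

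Centring arrays on their medians moved the split of higher and lower calls to 138 and 19 for rhPBEF (from all arrays as deposited, 121 and 37), to 524 and 409 for the combined treatment (508 and 628), and to 378 and 167 for averaged rhPBEF (338 and 266). Without detection calls, a low probe set could not be told from background.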

Other observations

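Replicate 3 held the lowest level of the group for 8 of the 9 genes with the combined treatment, for 7 with rhPBEF and for 5 with ventilation, against 2 in control. Over all tested genes replicate 3 was lowest for 38.5%, 35.6%, 30% and 34.7% in the same order. Deviations from the group mean over all tested genes correlated at 0.53 between replicate 3 of the rhPBEF group and replicate 3 of the combined group, at 0.36 between those of the combined and the ventilated group, and at -0.07 between those of the rhPBEF and the ventilated group. The labels do not say what replicates of 1 number share.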
